A study of Mus musculus with 12 samples.

Results

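The nuclear-encoded genes of the respiratory chain were measured in mouse fibroblasts at 72 h, with and without factor-driven reprogramming and with and without vitamin B12. Members were chosen by symbol, as protein-coding genes beginning with Nduf, Uqcr, Cox4 to Cox8 or Atp5, or named Sdha to Sdhd, Cyc1 or Cycs, with at least 1 CPM (a gene's count scaled to a common library total) in 3 libraries. Of 55573 genes in the table, 96 had such a symbol and 88 passed the level rule. All 88 reached 1 CPM in all 12 libraries, so the level rule did not depend on a group. They comprised 36 complex I subunits, 8 complex I assembly factors, 4 subunits of complex II, 9 of complex III, cytochrome c (Cycs), 13 genes of complex IV and 17 of ATP synthase.

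The cells were C57BL/6 mouse embryonic fibroblasts (MEFs) from 3 E13.5 embryos, called clones 1, 2 and 3. Per the study's methods they carry a doxycycline-inducible cassette for Oct4, Sox2, Klf4 and Myc (OSKM). Each clone gave 1 library of MEF (no doxycycline, no added B12), MEF+B12 (2 µM B12), OSKM (1 µg/ml doxycycline per the labels, where the study's methods print mg in place of µg) and OSKM+B12 (both), all in iPS cell medium, so the 4 groups had 3 libraries each. Uninduced cells had no doxycycline, so effects of the drug itself cannot be told apart from those of the factors. A clone is the culture of 1 embryo.

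The respiratory chain passes electrons from NADH through complex I, or from succinate through complex II, to ubiquinone, then through complex III and cytochrome c to complex IV, where oxygen is reduced. The protons pumped on the way drive ATP synthase. Most subunits are encoded in the nucleus and imported, a small core is encoded by mitochondrial DNA, and reprogramming to pluripotency is known for a shift from respiration towards glycolysis.

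Library totals ranged from 56971244 to 79236795 counts, and members took 0.578% to 0.633% of each. The factor cassette behaved as labelled, since Pou5f1 (Oct4) was at 0 to 0.468 CPM in the 6 uninduced libraries and at 2.33 to 20.7 CPM in the 6 induced ones, where clone 3 was the lowest with 2.33 to 2.86 CPM. All 8 fibroblast markers were measured, and their summed level was 106120 to 134480 CPM in uninduced and 82873 to 109920 CPM in induced libraries. The 7 pluripotency markers include the cassette factors Pou5f1 and Sox2. All 7 summed to 0.706 to 1.503 CPM in uninduced and 4.81 to 37.2 CPM in induced libraries, with Lin28a at 0 in all. Sox2 was at 0.378 to 0.838 CPM in uninduced libraries and at 2.18 to 17.8 CPM in induced ones. Most of the induced sum was Pou5f1 and Sox2, so it does not show a rise of the other markers. One library stood apart among the members. In the OSKM library of clone 1, the log2 differences of the 88 members from the mean of the same clone's other 3 libraries had an SD of 0.259, against 0.0502 to 0.122 in the other 11 libraries. It is described next, and results are also given without it.

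**Figure D1:**
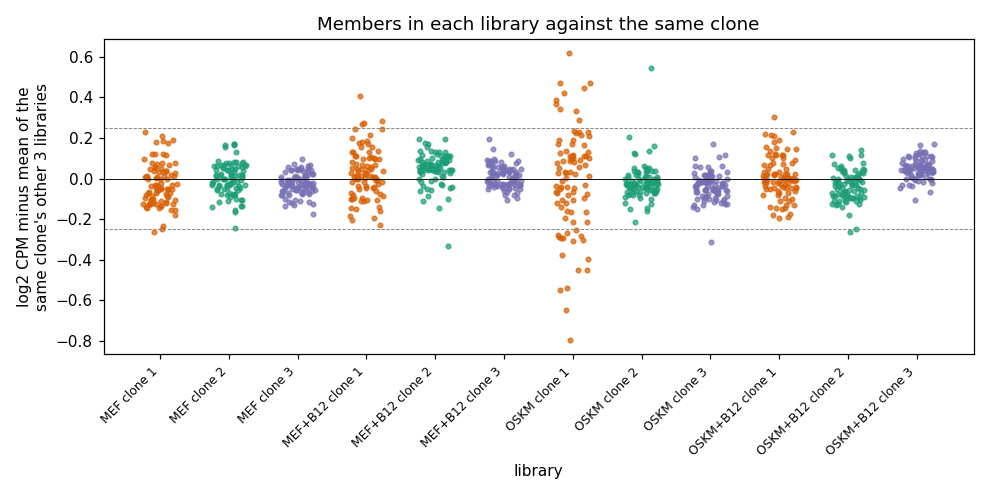
Each point is 1 member in 1 library, as log2 CPM minus the mean over the same clone's remaining 3 libraries (colours mark clones; dashed lines at ±0.25). The OSKM library of clone 1 had 27 of 88 members beyond the dashed lines, and the other libraries had 0 to 4.

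The departures in that library went both ways within the same complex. Of the 88 members, 27 (30.7%) lay more than 0.25 from the clone's other libraries on the log2 scale, against 22.1% of 10952 protein-coding genes of the same level range in this library. In those 10952 genes the SD was 0.239 in this library and 0.119 to 0.219 in the others, so the gap between it and the rest was wider among members. It held the lowest value of the 12 libraries in 31 members and the highest in 17. That is 54.5% of members outside the range of the other 11 libraries, against 39.8% of the 10952 genes.

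Atp5g3 (chr2:73908447-73911326, minus strand, GRCm38), 1 of 3 genes for the same membrane ring protein of ATP synthase, lay furthest below. It was at 72.9 CPM in this library and at 123 to 149 CPM in the other 11. The other ring genes did not follow, as Atp5g2 was at 96.5 CPM, above the 81.7 to 90.7 CPM of the other 11, and Atp5g1 was at 60.8 CPM, inside its range of 57.2 to 70.1 CPM. Uqcrfs1, the iron-sulfur protein of complex III, was at 34.9 CPM against 48.1 to 53.6 CPM, while Uqcrq of the same complex was at 66.4 CPM, above its range of 46.5 to 65.3 CPM. In complex I, Ndufa12 was at 40.8 CPM against 24.4 to 28.7 CPM and Ndufv2, a subunit of the NADH-oxidising arm, was at 74.5 CPM against 53.2 to 61.0 CPM. Ndufa2 in the same complex was at 32.5 CPM against 41.5 to 53.6 CPM.

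Among the complex totals, that of complex II stood apart, at 373 CPM in this library against 399 to 424 CPM in the other 11. Summed over its 36 subunits, complex I was at 1547 CPM in this library and at 1446 to 1602 CPM over all 12, and ATP synthase was at 2162 CPM against 2152 to 2420 CPM. Shared sequence was measured as the percentage of a gene's 31-base words found in transcripts of other genes. The SD in this library was 0.302 over the 19 members with no shared words and 0.228 over the 34 members with 10% or more. What set this library apart was not tested.

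**Figure D2:**
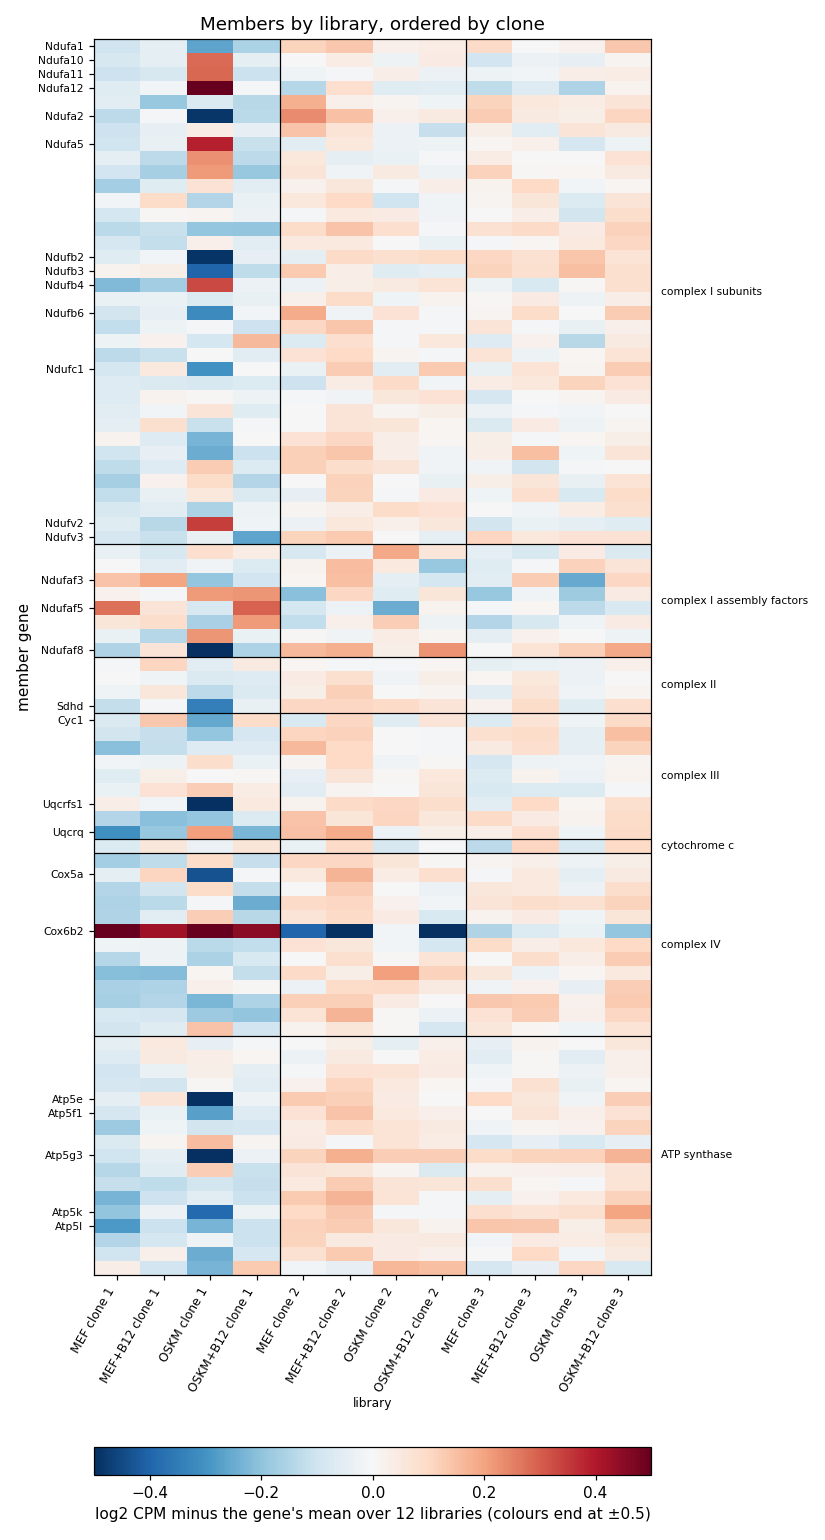
Colour gives log2 CPM minus the gene's mean over 12 libraries (blue lower, red higher, ending at ±0.5), with members as rows by role and libraries as columns by clone. Rows beyond 0.25 in either direction in any library are named. The OSKM column of clone 1 carries the strongest colours in both directions, Cox6b2 is red in all 4 columns of clone 1, and the other columns of clone 1 are mostly pale blue.

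Levels were compared between genes per length, as RPKM (CPM per kilobase of annotated exon), averaged over 12 libraries. The highest member was Cox6a1, a complex IV subunit, with 181 RPKM, and within each role the top gene was Ndufa2 (80.1 RPKM) for complex I, Ndufaf8 (8.70) for the assembly factors, Sdhd (62.2) for complex II, Uqcr10 (69.0) for complex III and Atp5a1 (157), the catalytic-head alpha subunit, for ATP synthase. Cycs was at 17.7 RPKM. The median was 3.68 RPKM over assembly factors, 26.2 over complex I subunits, 36.1 over complex II, 36.8 over complex III, 63.0 over complex IV and 41.1 over ATP synthase. The 8 assembly factors, which help build complex I without staying in it, reached at most 8.70 RPKM. Only 6 members of other roles averaged less than that maximum, led downwards by Atp5s (2.02 RPKM), whose product is named for ATP synthase but is an assembly-related factor, and by Ndufb2 (3.34 RPKM), whose annotated exons sum to 5628 bases. RPKM uses all annotated exons of a gene, so genes with long alternative exons read low.

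**Figure D3:**
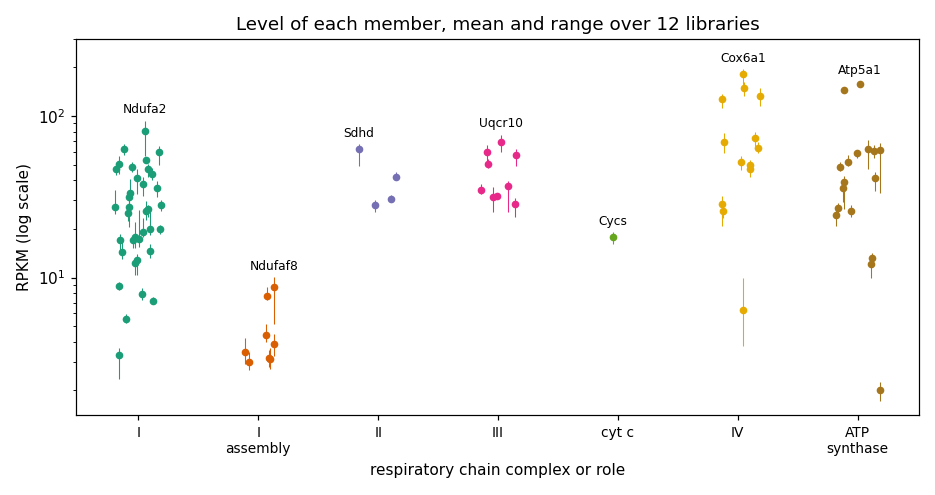
Points are the mean RPKM of each member over 12 libraries on a log axis, grouped by role, with lines from the lowest to the highest library and the top gene of each role named. Assembly factors sit between 2.99 and 8.70 RPKM, below most subunits.

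Tissue-type isoforms separated sharply. Complex IV has subunits with a widely expressed form and a form known from heart and skeletal muscle, lung or testis. Cox4i1 was at 127 RPKM and Cox4i2, the lung form, at 0.159. Cox6a1 was at 181 RPKM and Cox6a2, the muscle form, at 0.129. Cox7a2 was at 47.0 RPKM and its relative Cox7a2l at 68.8, against 0.842 for the muscle form Cox7a1. Cox8a was at 132 RPKM and the muscle form Cox8b at 0.116, while Cox8c had 0 counts in all libraries, which allows up to 0.00385 CPM over the 12 together. Ndufa4 was at 63.0 RPKM and Ndufa4l2, a gene known to rise under low oxygen, at 0.506. Cox4i2, Cox6a2, Cox7a1, Cox8b, Cox8c and Ndufa4l2 fell under the level rule, with Cox7b2 (1 count in all) and a second identifier for Atp5o (0 counts), which accounts for all 8 non-members by symbol. Markers of striated muscle summed to 2.00 to 3.58 CPM, those of brown fat to 7.95 to 12.8 CPM and those of endothelium to 41.7 to 145 CPM, with none at 0 in all libraries. Among the ring genes of ATP synthase, Atp5g3 (61.3 RPKM, range 33.4 to 68.2) and Atp5g2 (51.7, range 48.8 to 57.6) overlapped, and Atp5g1 (13.2, range 11.6 to 14.3) was lower than both in every library.

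Over the 12 libraries the members varied little. Their median SD of log2 CPM was 0.0945, against 0.126 over the 10952 coding genes of the same level range and 0.190 over all 19174 genes tested. Without the OSKM library of clone 1 the median SD was 0.0786 over members and 0.114 over that level range. Levels were not matched within the range, so a difference in counting noise cannot be set apart. The least variable was Atp5a1 with an SD of 0.038, and the most variable was Cox6b2 with 0.451.

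The comparison of induced with uninduced cells asked whether early reprogramming changes these genes. No member passed the threshold (edgeR quasi-likelihood test, Benjamini-Hochberg adjusted over all genes, 0.05) with induction averaged over B12, where 9.73% of all genes did, 856 higher and 1009 lower. DESeq2 also called 0 members. At an unadjusted p under 0.05 there were 10 members, against 26.8% of all genes. The members' median log2 fold change was -0.003, close to the -0.003 of all genes, and 43 of 88 were above 0. The median size of the change, without its sign, was 0.046 in members and 0.095 in all genes. Over the 10952 coding genes of the same level range it was 0.064. The median standard error of a gene's change was 0.04 in members and 0.046 in that level range.

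Of the 5 members of smallest p, none passed. Ndufa9, a complex I subunit, was at 51.9, 54.3 and 53.0 CPM in MEF and at 55.9, 56.2 and 54.7 in MEF+B12 for clones 1, 2 and 3, against 47.4, 49.0 and 49.97 in OSKM, then 51.2, 51.9 and 54.8 in OSKM+B12. The induced value was the lower in every pair except clone 3 with B12. The log2 fold change was -0.10 ± 0.03 (SE; edgeR adjusted p = 0.059). Ndufaf3, a complex I assembly factor, had -0.19 ± 0.06 (edgeR adjusted p = 0.0849), and Ndufs5 of complex I had -0.10 ± 0.03 (0.0849). Cox8a of complex IV had -0.09 ± 0.03 and Ndufaf1, another assembly factor, 0.11 ± 0.04, with edgeR adjusted p of 0.101 and 0.114. With offsets for gene length and GC content, 3 members passed, all lower in induced cells, namely Ndufa9, Ndufs5 and Cox7c, the last of complex IV.

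In OSKM against MEF, edgeR and DESeq2 each called 0 members (0.073% of all genes in edgeR), 8 had an unadjusted p under 0.05 (19% of all genes), and the 5 of smallest p were Ndufa2, Ndufa9, Ndufaf1, Ndufaf5 and Ndufb4, with a lowest adjusted p of 0.189. The number of all genes called depended on the clones, at 14 with all 3. It was 1322 without clone 3, the clone of lowest Pou5f1, and 1 without clone 1 or without clone 2. Members called stayed at 0 each time. In OSKM+B12 against MEF+B12, both tools called 0 members (0.104%), Cox8a alone had an unadjusted p under 0.05 (14.9%), and Cox8a, Sdhc, Ndufs5, Ndufaf3 and Atp5o led. By clone pair, 2 members, Ndufaf1 and Ndufb4, were higher in induced cells in 6 of 6 pairs, against 7.34% of all genes. Another 8 (9.09%) were lower in 6 of 6, near the 8.26% of all genes. These 8 were Atp5o, Ndufaf3, Ndufb5, Ndufs5, Sdhb, Sdhd, Cox5a and Cox8a.

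By role, 0 of 4 complex II genes had a fold change above 0, with -0.06 to -0.01 on the log2 scale, and 19 of 36 complex I subunits, 4 of 8 assembly factors, 5 of 9 complex III genes, 7 of 13 complex IV genes and 8 of 17 ATP synthase genes were above 0. The total over all members, in CPM, was higher in induced cells in 2 of 6 clone pairs, with log2 differences of -0.06 to 0.05. Without the OSKM library of clone 1, members called remained 0 (3.95% of all genes) and the median was -0.011. In bulk RNA, fewer cells of a type and less RNA per cell cannot be told apart.

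The study ranked the clones by reprogramming efficiency, and a clone by state term tested whether they answered induction differently. Each clone is 1 embryo with 2 libraries per state, 1 without and 1 with B12, so the test compares these cultures. For clone 1, an induced library was the OSKM library that stood apart. The test called 0 members with edgeR and DESeq2 (2.15% of all genes in edgeR), and 3 had an unadjusted p under 0.05 (14.8%). These were Ndufa3, Atp5j2 and Ndufaf8. Ndufa3, a complex I subunit, had log2 differences of 0.07, -0.18 and 0.07 for clones 1, 2 and 3 (edgeR adjusted p = 0.193).

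The 13 protein genes of mitochondrial DNA make products that assemble with the members. With induction averaged over B12, 4 of 13 rose (mt-Nd3, mt-Co3, mt-Atp6 and mt-Atp8) and 13 of 13 had a fold change above 0, with a median of 0.68 on the log2 scale. mt-Nd3, a complex I subunit, rose by 0.78 ± 0.10 (edgeR adjusted p = 0.0077). Taken singly, OSKM against MEF called 1 of the 13 and OSKM+B12 against MEF+B12 called 0. With B12 averaged over states 0 of 13 passed, and 13 of 13 were again above 0 (median 0.30). These transcripts are read from poly(A) libraries, and the difference between the 2 sets was not tested. Cell type markers moved with induction too. Of the 8 fibroblast markers 4 fell and 0 rose (median of the 8 on the log2 scale, -0.22), and of 3 endothelial markers tested 2 rose and 0 fell (median 1.22), with the summed endothelial level at 41.7 to 46.5 CPM in uninduced and 48.6 to 145 CPM in induced libraries. Of 13 macrophage markers 2 fell and 0 rose (median -0.14), of 4 tested markers of striated muscle 1 fell, and of 2 tested markers of brown fat 1 rose. Their part in the mitochondrial-genome result was not tested.

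**Figure D4:**
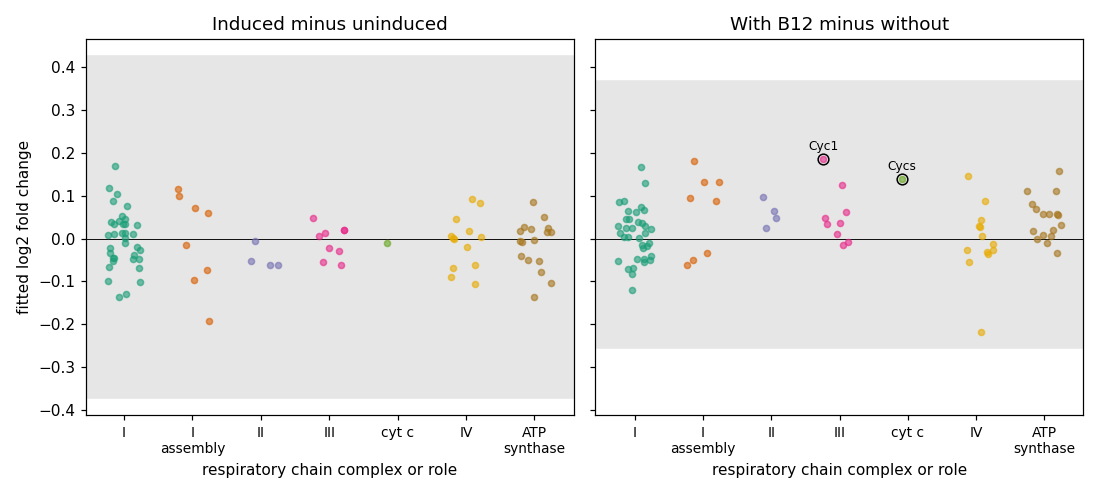
Points are fitted log2 fold changes of the 88 members by role, for induction averaged over B12 (left) and B12 averaged over induced and uninduced cells (right), with the middle 90% of all 19174 genes shaded and members past the threshold circled. All members lie inside the shading, and only Cyc1 and Cycs are circled, both in the right panel.

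In the main fit over all 12 libraries, the only members that passed were Cyc1 and Cycs, with added B12. Both encode c-type cytochromes, proteins that carry covalently bound heme. Averaged over induced and uninduced cells, Cyc1 and Cycs rose and no member fell. Thus 2 of 88 passed, a smaller share than the 3.84% of all genes (663 higher and 73 lower). DESeq2 called the same 2 members. A further 10 had an unadjusted p under 0.05 (15.5% of all genes for the 12 together).

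Cyc1 (ENSMUSG00000022551, chr15:76343523-76346260, plus strand) encodes cytochrome c1 of complex III, which hands electrons to cytochrome c. It was at 58.2, 58.0 and 58.3 CPM in MEF and at 67.2, 65.8 and 64.1 CPM in MEF+B12 for clones 1, 2 and 3. It was at 51.2, 58.7 and 60.2 CPM in OSKM and at 65.2, 63.9 and 65.3 CPM in OSKM+B12. All 6 libraries with B12 were above all 6 without it. The log2 fold change was 0.18 ± 0.04 (1.14-fold, edgeR adjusted p = 0.0269). The OSKM value of clone 1 was the lowest of the 12, and without that library the log2 fold change was 0.15 (edgeR adjusted p = 0.0128).

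Cycs (ENSMUSG00000063694, chr6:50562563-50566538, minus strand) encodes the soluble carrier cytochrome c, which is also known as a trigger of apoptosis when released. It was at 57.5, 58.9 and 55.1 CPM in MEF and at 62.7, 64.4 and 65.0 CPM in MEF+B12. Induced cells without B12 had 59.1, 57.1 and 57.2 CPM, and OSKM+B12 had 62.9, 60.03 and 64.6 CPM. All libraries with B12 were again above all those without, with the smallest margin between 60.03 and 59.1 CPM. The log2 fold change was 0.14 ± 0.03 (1.10-fold, edgeR adjusted p = 0.0418). Cycs shared 29.4% of its words with other transcripts, so part of its count is uncertain, whereas Cyc1 shared 1.01%.

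Neither call held on fewer clones. Leaving out clone 1, 2 or 3 gave Cyc1 edgeR adjusted p of 0.0891, 0.304 and 0.0895 and Cycs 0.134, 0.270 and 0.322, with log2 fold changes of 0.14 to 0.23 and 0.12 to 0.16. Without the clone block the adjusted p were 0.111 and 0.152. Hccs, the enzyme that attaches heme to both proteins, had a log2 fold change of 0.00 ± 0.04 (edgeR adjusted p = 0.973).

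**Figure D5:**
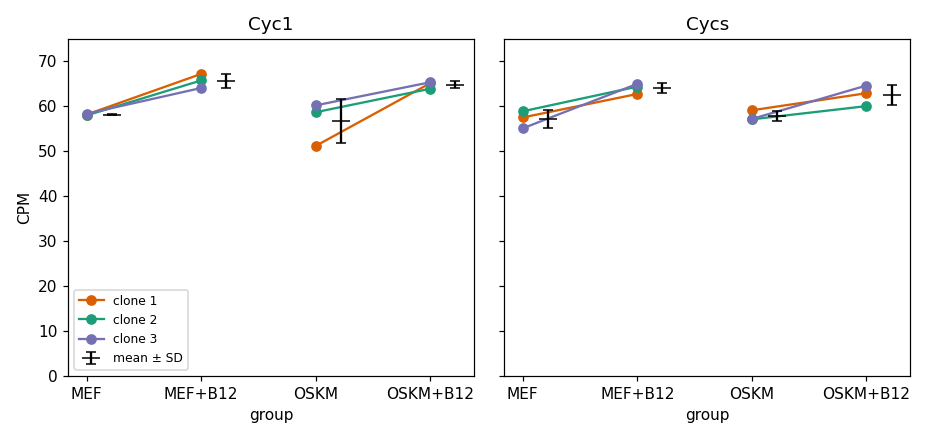
CPM of Cyc1 (left) and Cycs (right) in each library, with lines joining the libraries of 1 clone without and with B12 (colours mark clones) and black bars for the mean ± SD of 3 libraries. The line of every clone goes up in both genes, from 51.2 to 60.2 CPM without B12 to 60.03 to 67.2 CPM with it.

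The next members by p missed the threshold. Ndufc1 of complex I was at 18.1, 18.7 and 18.7 CPM in MEF, 19.9, 20.9 and 20.1 in MEF+B12, 15.5, 18.5 and 19.4 in OSKM, then 19.2, 21.01 and 20.95 in OSKM+B12. It was higher with B12 in every clone pair, with 0.17 ± 0.04 (edgeR adjusted p = 0.0617). Ndufb8 of complex I had 0.13 ± 0.03 and Cox7a2 of complex IV 0.09 ± 0.03, with edgeR adjusted p of 0.0647 and 0.143.

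Across clone pairs, 12 members (13.6%) were higher with B12 in 6 of 6 against 8% of all genes, and 0 were lower in 6 of 6 against 7.64%. Besides Cyc1, Cycs, Ndufc1, Ndufb8 and Cox7a2 they were Atp5a1, Ndufaf8, Ndufa9, Ndufb5, Sdhc, Uqcrc1 and Cox5a. Fold changes were above 0 in 59 of 88 members and in 44.9% of all genes, with medians of 0.026 and -0.013. By role these were 22 of 36 complex I subunits, 5 of 8 assembly factors, 4 of 4 complex II genes, 7 of 9 complex III genes, 6 of 13 complex IV genes and 14 of 17 ATP synthase genes. The total over all members was higher with B12 in 4 of 6 pairs, with log2 differences of -0.009 to 0.066. By role, summed CPM was higher in 6 of 6 for complex II (0.01 to 0.11), complex III (0.03 to 0.08) and ATP synthase (0.01 to 0.09). It was higher in 4 of 6 for complex I subunits (-0.08 to 0.05), assembly factors (-0.03 to 0.10) and complex IV (-0.11 to 0.07). The 0.11, -0.08 and -0.11 all came from the induced pair of clone 1, which holds the library that stood apart. The member furthest below 0 was Cox6b2, with -0.22 ± 0.08 (edgeR adjusted p = 0.233).

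Promoters are shown for Cycs, which passed with B12, and for Ndufc1, Ndufb8 and Uqcrc1, 3 other members higher with B12 in every clone pair. Of the 88 members 74 had RefSeq promoter windows (GRCm38.p6, 250 bases before to 50 after a gene's start), 2 through older symbols, and the other 14 included Atp5a1, Atp5mpl, Cox4i1, Cox6c, Cyc1, Ndufa2, Ndufaf6, Ndufb9, Ndufs1, Sdhc, Uqcrb, Uqcrc2 and Uqcrq. Capitals mark matches on either strand to GCATGCGC (core of the motif of NRF1, a known activator of respiratory genes), CCGGAAG (GABP, an ETS factor), ATGGCGG (YY1) or GGGCGG (Sp1). The windows are chr6:50566520-50566819 (minus strand) for Cycs, chr3:51408906-51409205 (minus) for Ndufc1, chr19:44555393-44555692 (minus) for Ndufb8 and chr9:108936398-108936697 (plus) for Uqcrc1.
Cycs: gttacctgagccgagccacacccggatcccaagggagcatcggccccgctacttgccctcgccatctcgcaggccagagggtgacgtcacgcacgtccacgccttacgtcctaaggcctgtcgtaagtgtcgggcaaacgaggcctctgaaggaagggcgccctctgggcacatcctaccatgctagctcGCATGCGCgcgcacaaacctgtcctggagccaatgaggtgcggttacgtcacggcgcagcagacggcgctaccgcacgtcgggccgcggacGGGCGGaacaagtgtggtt
Ndufc1: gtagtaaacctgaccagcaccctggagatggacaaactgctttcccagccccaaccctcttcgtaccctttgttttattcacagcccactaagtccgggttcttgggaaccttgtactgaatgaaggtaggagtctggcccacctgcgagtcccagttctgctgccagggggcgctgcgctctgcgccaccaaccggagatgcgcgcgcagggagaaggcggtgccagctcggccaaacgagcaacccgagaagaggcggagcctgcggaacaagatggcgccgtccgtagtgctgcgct
Ndufb8: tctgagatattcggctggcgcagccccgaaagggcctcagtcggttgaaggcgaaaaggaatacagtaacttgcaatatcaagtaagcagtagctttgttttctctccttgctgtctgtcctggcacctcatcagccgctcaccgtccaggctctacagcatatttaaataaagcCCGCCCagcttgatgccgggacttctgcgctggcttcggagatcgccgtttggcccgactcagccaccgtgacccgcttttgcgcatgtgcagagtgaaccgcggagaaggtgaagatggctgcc
Uqcrc1: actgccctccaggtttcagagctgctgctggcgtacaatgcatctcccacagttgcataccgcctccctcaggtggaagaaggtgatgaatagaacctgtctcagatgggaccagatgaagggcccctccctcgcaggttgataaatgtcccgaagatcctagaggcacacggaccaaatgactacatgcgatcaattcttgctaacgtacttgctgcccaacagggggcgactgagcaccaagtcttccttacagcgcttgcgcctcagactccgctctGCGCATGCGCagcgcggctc

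The Cycs window held 1 NRF1 core and 1 Sp1 match. In the Uqcrc1 window the NRF1 core occurred on both strands and the matches overlapped, within a marked stretch that reads the same on both strands. The Ndufb8 window held an Sp1 match on the opposite strand, and none of the 4 motifs was in the Ndufc1 window. Over the 79 member windows, the NRF1 core was in 16.5% against 2.71% of all 32851 windows, the GABP motif in 22.8% against 8.86%, YY1 in 16.5% against 4.05% and Sp1 in 45.6% against 35.7%. These shares are descriptions of sequence that the expression data did not use. No match says only that these letters were not in the window.

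Within each state no member passed. In MEF+B12 against MEF, edgeR called 0 members (1.38% of all genes), DESeq2 called 0, and 8 had an unadjusted p under 0.05 (10.3%), led by Cycs, Cyc1, Uqcrc1, Ndufa13 and Cox7a2 with a lowest adjusted p of 0.158. Fitted on the 6 uninduced libraries alone, Cyc1 and Cycs passed, with edgeR adjusted p of 0.0214 and 0.0416. In OSKM+B12 against OSKM, both tools called 0 members (1.06%), and 9 had an unadjusted p under 0.05 (9.82%), led by Ndufb8, Cyc1, Ndufc1, Ndufaf5 and Ndufa9 with a lowest adjusted p of 0.202. The interaction, which is the B12 change in OSKM minus that in MEF, called 0 members with either tool (0% of all genes in edgeR), with only Ndufaf5 at an unadjusted p under 0.05 (1.42%).

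Macrophage markers moved with B12. Of the 13 markers 12 rose (median of the 13 on the log2 scale, 0.56), and their summed level was 1387 to 2627 CPM in MEF, 2089 to 3474 in MEF+B12, 1423 to 2432 in OSKM, then 2183 to 2825 in OSKM+B12. None of the 13 was at 0 in all libraries. Their part in the Cyc1 and Cycs results was not tested. Without the OSKM library of clone 1, members called with B12 remained 2 (4.03% of all genes) and 70 of 88 were above 0.

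Other genes of the pathway passed rarely. Of 17 regulators of mitochondrial biogenesis 0 passed with induction and 0 with B12. With B12, 11 of the 17 were above 0, with a median of 0.008. Ppargc1b, a coactivator of respiratory genes, had 0.42 ± 0.11 with B12 (edgeR adjusted p = 0.0679). Ppargc1a, also on the list, went the other way, with -0.26 ± 0.14 (edgeR adjusted p = 0.438). Of 37 assembly factors outside the rule, Atpaf1, which helps assemble the catalytic head of ATP synthase, rose with induction (0.15 ± 0.04, edgeR adjusted p = 0.044) and 0 passed with B12. Of 13 tricarboxylic acid cycle genes 0 passed in either, with medians of 0.03 and 0.04. Of 77 mitochondrial ribosomal protein genes, Mrpl50 rose with induction (0.12 ± 0.03, edgeR adjusted p = 0.0378) and 0 passed with B12, with medians of 0.02 in both.

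Clone 1 differed from the others in many members. All 4 of its libraries were below all 8 of clones 2 and 3 in 21 members (8.88% of all genes) and above them in 1 (7.98%). Without its OSKM library the counts were 34 below (11.4%) and 2 above (9.89%). For clone 2 the counts were 0 below (1.66%) and 0 above (1.52%), and for clone 3 0 below (1.59%) and 0 above (2.47%). Outside its OSKM library, clone 1 was lower than the mean of clones 2 and 3 in 74 of 88 members, with a median difference of -0.10 on the log2 scale, against 0.00 over all genes.

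Cox7c of complex IV was at 70.5 to 74.5 CPM in clone 1 and at 82.5 to 90.6 CPM in clones 2 and 3. Atp5l, a small membrane subunit of ATP synthase, was at 63.8 to 72.2 CPM against 78.7 to 85.6. Cox6b2, a complex IV isoform known from testis, went the other way, at 10.9, 8.99, 9.83 and 9.16 CPM in the MEF, MEF+B12, OSKM and OSKM+B12 libraries of clone 1 and at 4.18 to 6.62 CPM in the 8 others. Even there it was far below Cox6b1, which was at 94.6 to 114 CPM.

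The difference varied with gene length. The median difference was -0.14 in the 30 shortest members and -0.05 in the 30 longest. Spearman's rho between this difference and exonic length was 0.37 over 88 members and 0.15 over all genes, as a description, since genes share the libraries. The titles give clone 1 a later year than the others, and Xist was at 0.0147 to 0.0289 CPM in clone 1 and at 219 to 350 CPM in the others, so embryo, year and sex cannot be told apart. The 3 X-linked members, Ndufa1, Ndufb11 and Cox7b, differed by -0.17, -0.11 and -0.14, within the range of the rest.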

How the data were processed

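RNA was measured in 12 libraries from 3 embryos. Per the labels, poly(A) RNA was made into directional libraries and sequenced from both ends. The authors aligned pairs with STAR 2.5.2 (version from the submitters' processing notes) to mm10 (GRCm38), then ran featureCounts on the reverse strand. They deposited raw counts, summing a library's flow cells. Symbols, coordinates and exonic lengths came from GENCODE on the same build, which matched 55480 of 55573 identifiers.

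From these counts, CPM were computed on library totals scaled by TMM factors (0.934 to 1.06), RPKM as CPM per kilobase of exon, and log2 CPM with a prior count of 2. The 10952 protein-coding genes whose mean log2 CPM lay between the lowest and highest member served as a reference. Levels were not matched within that range. The main test was edgeR 4.0.16 (quasi-likelihood, filterByExpr, 19174 genes, Benjamini-Hochberg over all, threshold 0.05) in R 4.3.3, in 1 fit over 12 libraries with group and clone. The biological coefficient of variation was 8.04%. Clone entered as the block, since every embryo supplied all 4 groups, and libraries of a clone deviated together from their group means (correlations across genes of 0.270 to 0.687 over 18 pairs, at most 0.170 between clones). The scripts were tested on simulated data.

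Alternatives were DESeq2 1.42.0, DESeq2 size factors, library totals, no filter, at least 10 counts in every library, no clone block, offsets for length and GC, leaving out each clone or the OSKM library of clone 1, and fits to the libraries compared. Members, lists and the naming rule were chosen with earlier results of these data known. Genes named are, per comparison, up to 12 members of smallest p that passed or otherwise the 5 of smallest p, the top member per role by RPKM, the isoform families and up to 3 genes of each other list. Members named for their departure in 1 library or clone, and the promoters shown, were chosen after their values were seen. With clone as a block, p-values measure how much the differences between groups varied among cultures of 3 embryos. The spread in level between embryos is taken up by the block. Counts carry no molecular identifiers, and the limit given for a count of 0 uses 3 counts and covers counting error only. An item withheld from this text is not reported here by name.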

Additional observations from a re-analysis of the deposited data

How the results depend on the processing

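Of 91 recomputed counts of members called, 82 stayed within 1.5 times the main count. Scaling by library totals gave 1 member with induction averaged over B12 (Cox7a2l, higher) and 3 with B12 averaged over states. It moved the members' median log2 fold change to 0.069 in OSKM against MEF, 0.044 with induction averaged over B12 (from -0.003, a change of sign), 0.077 in MEF+B12 against MEF and 0.051 with B12 averaged over states. Offsets for length and GC with the replicate block gave 3 members with induction averaged over B12 and a median of 0.033 in MEF+B12 against MEF. With B12 averaged over states, no filter left 1 member (Cyc1), and the fit with no replicate block left 0. Leaving out 1 clone gave 0 in each case there, and medians of 0.041 to 0.060 in MEF+B12 against MEF. In that comparison 1 member passed without the OSKM library of clone 1 and 2 passed when only the libraries compared were fitted. The causes were not tested. Of 405 recomputed values of named members 0 reversed and 390 kept their call. With TMM-scaled library sizes the rule again gave 88 members.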
